A study of Homo sapiens with 6 samples.

Results

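The genes described here are 8 members of the connexin and pannexin families: GJA1, GJA3, GJA4, GJB2, GJC1 and GJD3, which encode connexins, and PANX1 and PANX2, which encode pannexins. They are 8 of 27727 genes that could be matched in the authors' deposited table, and each gene stands for its RefSeq accession with the highest base mean. They were chosen with the fold changes of this comparison already known, so their values are a description and carry no test of the group. Other connexin and pannexin genes are described beside them.

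RNA was sequenced from U87, an established human glioblastoma cell line. The 3 libraries labelled EGFR+vIII TLR2 KO carry a knockout of TLR2, a cell surface receptor of innate immunity. The 3 libraries labelled EGFR+vIII are the cells they are set against. Both groups share the labels EGFR, the epidermal growth factor receptor, and vIII, its constitutively active deletion mutant of glioblastoma. The labels do not say how the receptors were introduced, whether the knockout is 1 clone, or whether each library is its own culture. The p-values therefore measure only how far these libraries spread, and part of that may be technical.

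Connexins are membrane proteins that form hexameric channels, and a channel of a cell docks with that of its neighbour to form a gap junction, through which ions, metabolites and second messengers pass directly. Astrocytes are coupled into a network by such junctions, in which GJA1 supplies the main subunit, and glioma cells use them to exchange signals with each other and with astrocytes. Pannexins are related to the innexins of invertebrates. They form large-pore channels that release ATP from the cell, and that ATP acts on purinergic receptors.

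The values come from a single table in which the authors compared these groups. It holds a base mean (reads per library after scaling, averaged over the 6 libraries), a log2 fold change with its standard error (SE) and an adjusted p for each accession, with no column per library. Fold changes are read as knockout over EGFR+vIII from the name of the deposited table, which puts the knockout first. TLR2 has 8 accessions in the authors' deposited table, all listed at 0, so the order cannot be checked from the targeted gene, and the opposite order would reverse every direction below. Summed over accessions, the base means come to 11240272 normalized reads per library. A gene listed at 0 need not be silent: EGFR, which both groups carry by their labels, has 9 accessions and a highest base mean of 1.32 in the authors' deposited table. Of the glioma and astrocyte-lineage markers, the filament protein VIM and the matrix protein TNC had base means of 126476 and 90343, and GFAP, S100B and FABP7 are listed at 0 in the authors' deposited table. Of that list's 7 tested members, 2 were called higher and 2 lower by the authors' deposited table, beside 11.6% and 11.9% over all accessions. Among accessions with a base mean of at least 100, the shares were 22.7% and 24.9%. As log2 fold changes, CHI3L1 (3.01, SE 0.24) and NES (1.01, SE 0.12) were higher in the knockout. SOX2 (-2.45, SE 0.30) and VIM (-0.29, SE 0.08) were lower. Of markers of other cells, 6 of 8 for leucocytes, 4 of 6 for neurons, 4 of 6 for oligodendrocytes and 0 of 6 for endothelium are listed at 0 in the authors' deposited table. MBP, the myelin basic protein of oligodendrocytes, had a base mean of 210.0 in its accession with the most reads, 1 of 6. It fell by 2.71 (SE 0.20) in log2 units, by the authors' deposited table. OLIG2, the other oligodendrocyte marker tested, had a base mean of 51.6 and was not called, at -0.18 (SE 0.29) on that scale. The endothelial receptor KDR and adhesion protein PECAM1 had base means of 556 and 159 and were not called, by the authors' deposited table. The other endothelial markers were lower, with VWF at 13.5 and not called. CDH5, TEK and CLDN5 stood at 0.54, 0.48 and 0.16, with no adjusted p. The part of these markers in the results below was not tested.

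The promoter windows of the 3 members with an adjusted p under 0.05 are shown because 2 of these genes were higher and 1 was lower in the knockout. Each runs from 250 bases before to 50 bases after the annotated start (RefSeq, GRCh38.p14), written 5′ to 3′ on the strand of the gene. Capitals mark the AP-1 motif TGANTCA in GJA1 (chr6:121435396-121435695, plus strand) and the GC box GGGCGG, on either strand, in GJB2 (chr13:20192889-20193188, minus strand) and PANX1 (chr11:94128591-94128890, plus strand).
GJA1: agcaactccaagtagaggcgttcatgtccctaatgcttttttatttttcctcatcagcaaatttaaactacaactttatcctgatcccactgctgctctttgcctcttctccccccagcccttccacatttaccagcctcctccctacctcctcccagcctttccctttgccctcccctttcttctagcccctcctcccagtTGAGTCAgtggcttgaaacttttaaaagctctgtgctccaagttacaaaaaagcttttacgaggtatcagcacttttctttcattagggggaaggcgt
GJB2: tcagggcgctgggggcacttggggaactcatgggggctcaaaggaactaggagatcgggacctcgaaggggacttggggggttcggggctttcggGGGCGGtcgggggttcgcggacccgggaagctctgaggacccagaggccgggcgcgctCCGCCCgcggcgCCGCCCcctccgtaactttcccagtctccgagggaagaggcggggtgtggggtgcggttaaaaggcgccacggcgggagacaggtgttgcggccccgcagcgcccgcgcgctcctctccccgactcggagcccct
PANX1: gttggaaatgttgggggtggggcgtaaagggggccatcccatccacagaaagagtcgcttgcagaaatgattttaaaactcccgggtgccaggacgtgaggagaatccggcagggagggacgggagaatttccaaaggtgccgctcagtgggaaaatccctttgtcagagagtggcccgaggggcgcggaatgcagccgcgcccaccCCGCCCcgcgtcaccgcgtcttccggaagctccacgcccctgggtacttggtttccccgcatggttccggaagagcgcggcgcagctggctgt

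The 3 windows differ in base composition. The GJA1 window has a GC content of 47.0% and 3 CpG dinucleotides, the GJB2 window 71.7% and 33, and the PANX1 window 62.3% and 24, where the median GC content of all 27305 RefSeq promoter windows is 58.3%. The AP-1 motif of GJA1 begins 48 bases before the start. TGANTCA, whose reverse complement has the same letters, stands in 7.76% of all promoter windows and in 1 of the 12 family windows in the table, that of GJA1. The GC box was found 3 times in GJB2, 3 times in GJA3 and once in PANX1, and stands in 44.6% of all windows. A kappaB motif lay in the PANX1 window, 100 bases before the start, and in 10.8% of all windows. The TATA letters TATAAA (12% of all windows), the CRE letters TGACGTCA (1.98%) and the ISRE motif (3.65%), searched on both strands, are not in the windows of GJA1, GJB2 or PANX1. Matches of letters describe these windows only. Promoter windows were held for 4 of the 8 members.

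The first comparison was of each channel gene in the knockout against EGFR+vIII. GJA1, the most abundant of the family, was 2.58-fold lower in the knockout. GJB2, a connexin of skin and cochlea, was 4.11-fold higher, and PANX1, the widely expressed ATP release channel, was 1.19-fold higher. GJC1 and GJD3 did not reach an adjusted p of 0.05, and GJA3, GJA4 and PANX2 are listed at 0. Of the 8 members, 5 had an adjusted p in the authors' deposited table, and 2 of them were called higher and 1 lower. Over all 10303 tested accessions 23.5% were called, 11.6% higher and 11.9% lower, at an adjusted p under 0.05. The members were picked from this same comparison, so nothing is read from their count. Other rules gave other counts, again with nothing read from them. Against a null of 1.5-fold, 1 member was called higher and 1 lower, where 3.96% of accessions were called, 1.92% higher and 2.04% lower. With scaled Wald scores (less their median, then divided by their central spread) it was again 1 and 1. There, 8.67% were called, 3.73% higher and 4.94% lower. Among accessions with a base mean of at least 100 it was 1 and 1, where 47.6% were called, 22.7% higher and 24.9% lower. With no filter on low values it was 1 and 1, where 11.9% were called, 5.79% higher and 6.12% lower. At an adjusted p under 0.01 it was 1 and 1, where 17.8% were called, 8.51% higher and 9.24% lower. With 1 accession per gene it was 2 and 1, where 25.4% were called, 12.6% higher and 12.9% lower. Relative to genes within 2 Mb it was 2 and 0, where 23.7% were called, 11.3% higher and 12.4% lower, and relative to genes within 10 Mb it was 2 and 1, where 22.8% were called, 10.7% higher and 12.1% lower.

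**Figure D1:**
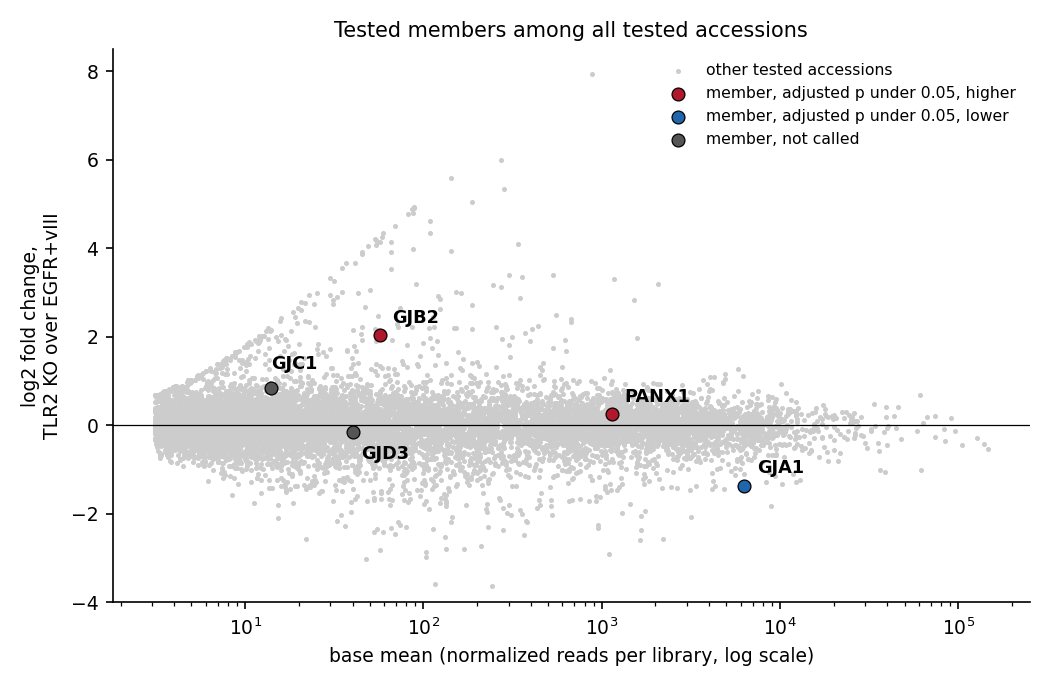
Log2 fold change, knockout over EGFR+vIII, against base mean on a log scale for every tested accession (grey) and the 5 tested members (red, called higher; blue, called lower; dark grey, not called). GJA1 lies at a base mean of 6292 and a log2 fold change of -1.37, GJB2 at 57.0 and 2.04, and PANX1 at 1136 and 0.26.

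GJA1 (chromosome 6, 121435646 to 121449727, plus strand, GRCh38; 1 accession, NM_000165) has 2 exons in GENCODE 29, and its 382 codons lie in 1 of them, the usual plan of a connexin gene. Its base mean in the authors' deposited table was 6292, higher than 96.4% of tested accessions. The log2 fold change was -1.37 (SE 0.08, adjusted p = 1.4e-56 by the authors' DESeq2 run) in the authors' deposited table. The base mean and fold change of that table, with 3 libraries on each side, correspond to a mean of about 3515 normalized reads per library in the knockout and 9068 in EGFR+vIII. The 95% interval from the SE runs from 2.30-fold to 2.89-fold lower. Of 1226 accessions called lower in the authors' deposited table, 147 had a larger fall. In RNA from whole cultures, fewer cells with GJA1 RNA and less of it per cell cannot be told apart. GJA1 held 97.8% of the base means of all connexin accessions together, so the summed connexin reads follow it. They came to about 3691 normalized reads per library in the knockout and 9166 in EGFR+vIII. The counting of reads shared by several accessions of a gene is not known here, which limits the 97.8%. RefSeq annotates a pseudogene, GJA1P1, and a gene that overlaps GJA1, LOC124901515. Neither has a line in the deposited table, so how reads shared with them were counted is not known here.

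GJB2 (chromosome 13, 20187470 to 20192938, minus strand; 1 accession, NM_004004) has 2 exons, with 226 codons in 1 of them. Its channels serve the epidermis and the supporting cells of the inner ear. The base mean was 57.0 in the authors' deposited table, close to the median of tested accessions (49.3) and about 342 normalized reads over the 6 libraries. Its log2 fold change was 2.04 (SE 0.32, adjusted p = 5.05e-09 by the authors' DESeq2 run) in the authors' deposited table. That corresponds to about 91.8 normalized reads per library in the knockout and 22.3 in EGFR+vIII, with a 95% interval from 2.65-fold to 6.38-fold higher. Deposited fold changes are drawn towards 0 for genes with few reads, so these means may understate the difference. Of 1191 accessions called higher in the authors' deposited table, 104 had a larger rise. GJB2 RNA was far scarcer than GJA1 RNA. Averaged over the 6 libraries, GJB2 had 24.1 and GJA1 had 1996 normalized reads per kilobase of transcript.

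Of markers of epithelia, where GJB2 is usually found, a pair of keratins was also higher in the knockout. Of 7 epithelial markers, 3 were tested, 2 of them called higher and 0 called lower by the authors' deposited table, beside 11.6% and 11.9% over all accessions. The keratins KRT5 and KRT14 rose by 1.83 (SE 0.38) and 1.39 (SE 0.36) in log2 units, by the authors' deposited table, at base means of 10.3 and 7.01. EPCAM stood at -0.22 (SE 0.36, adjusted p = 0.758) on that scale, and CDH1 is listed at 0 in the authors' deposited table. KRT8, KRT18 and KRT19, the other keratins of the list, had base means of 2.59, 0.34 and 1.51 and no adjusted p. Their log2 fold changes were 0.02, 0.07 and 0.13 in the authors' deposited table. The 3 tested markers sum to about 47.0 normalized reads per library in the knockout and 32.5 in EGFR+vIII. These sums rest on deposited fold changes drawn towards 0, which may understate the change of each marker. Both keratin calls were lost with scaled Wald scores, and that of KRT14 also against a null of 1.5-fold. Their part in the GJB2 result was not tested.

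PANX1 (chromosome 11, 94128841 to 94181968, plus strand; 1 accession, NM_015368) has 5 exons, all coding, for 426 codons, unlike the connexin members with their single coding exon. Its base mean was 1136 in the authors' deposited table, above 81.4% of tested accessions. The log2 fold change was 0.26 (SE 0.10, adjusted p = 0.0416 by the authors' DESeq2 run) in the authors' deposited table, the nearest of the members to the threshold on its inner side. It corresponds to about 1236 normalized reads per library in the knockout and 1035 in EGFR+vIII, with a 95% interval from 1.04-fold to 1.36-fold. Of the 1191 accessions called higher in the authors' deposited table, 1137 had a larger rise. The call was lost when every accession with a p-value entered the adjustment (adjusted p = 0.0731). It was also lost with scaled Wald scores (0.644) and against a null of 1.5-fold (1).

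GJC1 (chromosome 17, 44794104 to 44831364, minus strand), a connexin of heart and vascular smooth muscle, was the nearest member outside the threshold. Its main accession, NM_005497, had a base mean of 13.9 and stood at 0.84 as log2 fold change (SE 0.38, adjusted p = 0.0984 by the authors' DESeq2 run) in the authors' deposited table. The 95% interval runs from 1.07-fold to 3.0-fold. The base mean is a sum of whole reads over the 6 libraries, and only 2 sets of whole reads give it with a fold at least as large as the deposited one, which is drawn towards 0. They are 24, 12 and 25 reads in the knockout libraries with 4, 9 and 9 in EGFR+vIII, or 50, 10 and 7 reads in the knockout with 16, 2 and 1 in EGFR+vIII. The groups do not overlap in the first set and overlap in the second, and the table cannot tell these sets apart. The other accession of GJC1, NM_001080383, had 6, 1 and 0 reads in the knockout libraries and 1, 0 and 4 in EGFR+vIII, recovered from its base mean in the authors' deposited table.

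GJD3 (chromosome 17, 40360652 to 40364737, minus strand; 1 accession, NM_152219) had a base mean of 40.2 and stood at -0.15 as log2 fold change (SE 0.33, adjusted p = 0.827 by the authors' DESeq2 run) in the authors' deposited table. Its 95% interval runs from 0.574-fold to 1.41-fold, so neither a lower nor a higher level within these bounds was excluded. Its gene overlaps GJD3-AS1, an antisense RNA gene without a line in the deposited table, and without a stated strand setting their reads cannot be told apart.

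GJA3, a connexin of lens fibres, and GJA4, a connexin of endothelium, have 1 accession each in the authors' deposited table, and both are listed at 0. PANX2, a pannexin enriched in the nervous system, has 3 accessions, all listed at 0 in the authors' deposited table. GJA3 lies 25.9 kb from GJB2 on chromosome 13, in the same cluster of connexin genes.

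**Figure D2:**
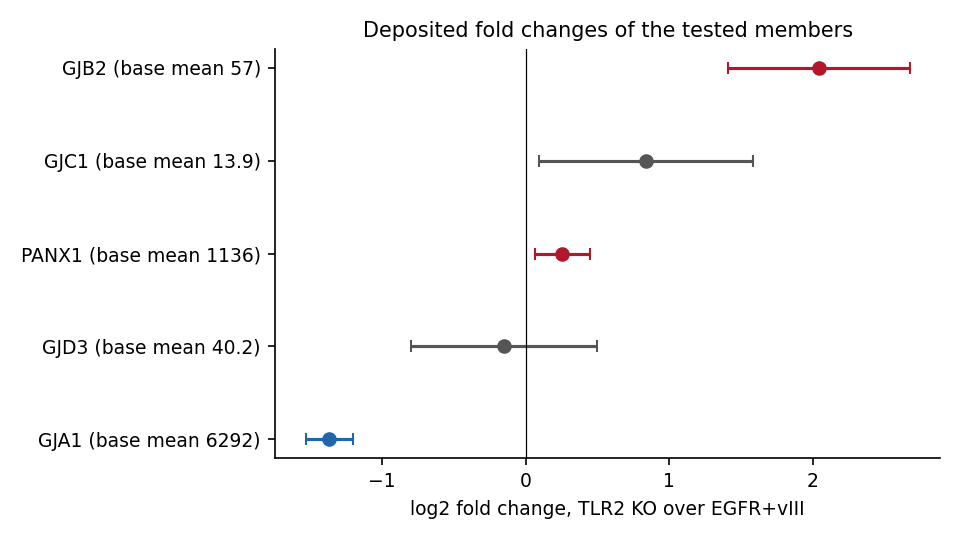
Log2 fold change, knockout over EGFR+vIII, with 95% intervals from the deposited SE, for the 5 members with an adjusted p (red, called higher; blue, called lower; grey, not called), with the base mean beside each name. GJB2 stands highest at 2.04 and GJA1 lowest at -1.37, and of these intervals that of GJD3 crosses 0.

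The tested members were ordered by normalized reads per kilobase of transcript (lengths from GENCODE 29). GJA1 came first at 1996 and PANX1 second at 410.1. GJD3 followed at 45.4, on a transcript model that holds little beyond the coding sequence and so raises the value. GJB2 came next at 24.1 and GJC1 last at 7.57. GJC1 has 2 accessions, of which the one with more reads was used, and the other tested members have 1 each. How reads shared by accessions of a gene were counted is not known here. Spread over libraries is not in the table for these genes, so neighbours in this order cannot be compared beyond their spread.

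The next question was how the rest of the family behaved. All 24 human connexin and pannexin genes, 21 connexins and 3 pannexins, have lines in the authors' deposited table: 11 are listed at 0 in every accession, 5 have reads but no adjusted p, and 8 were tested. Among the 7 connexins tested, GJB2 was the 1 called higher and GJA1 the 1 called lower, by the adjusted p of the authors' deposited table. Besides GJA3 and GJA4, the connexins GJA5, GJA9, GJB1, GJB6, GJD2 and GJE1 are among those listed at 0 in the authors' deposited table. Among them GJB6 is a second connexin of astrocytes and GJD2 the main connexin of neurons. PANX3, a pannexin of skin and cartilage, is also listed at 0 in the authors' deposited table.

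For connexins with few reads, the whole reads of each library could be recovered from the base means, as each is a whole-number sum of 6 unit values. The libraries keep the same order within a group throughout, but are not tied to a label number. GJB5, a connexin of the epidermis, had 0, 3 and 6 reads in the knockout libraries and 0, 0 and 0 in EGFR+vIII. It was not tested by the authors.

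GJA10, known from the horizontal cells of the retina in mice, had 0, 1 and 7 reads in the knockout libraries and 0, 0 and 0 in EGFR+vIII. GJB7 had 0, 0 and 0 reads in the knockout libraries and 0, 0 and 6 in EGFR+vIII, all in 1 library. GJC3 had 5, 0 and 0 reads in the knockout and 1, 0 and 0 in EGFR+vIII, and GJD4 had 1, 0 and 0 in the knockout and 0, 0 and 0 in EGFR+vIII. For these 4 genes most reads came from a single library, and none has an adjusted p in the authors' deposited table.

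**Figure D3:**
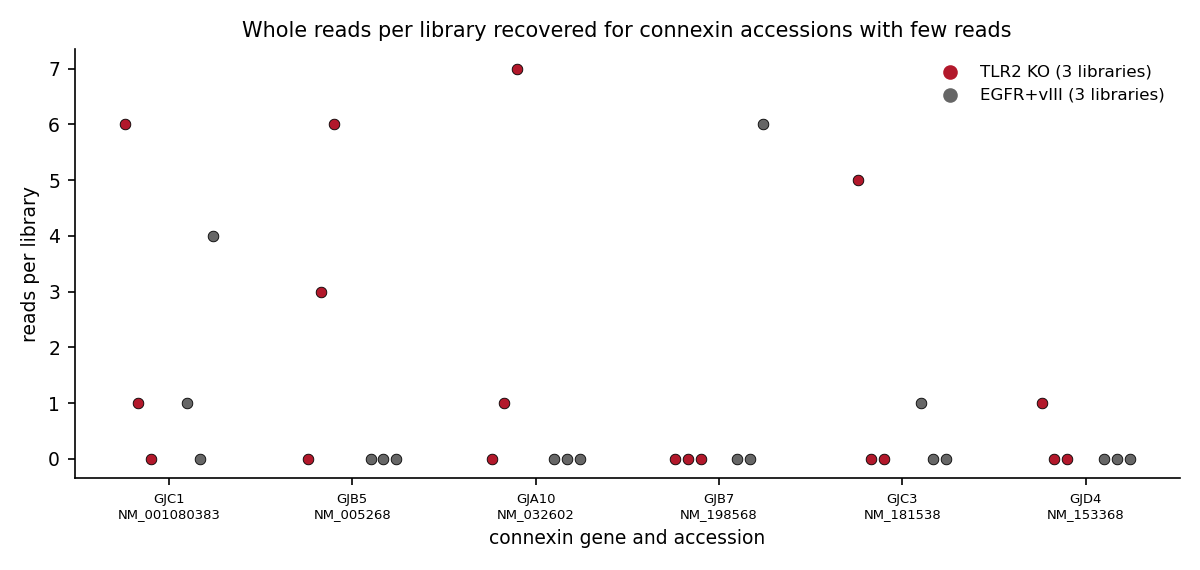
Whole reads in each of 3 knockout (red, left of each pair) and 3 EGFR+vIII (grey, right) libraries for 6 connexin accessions whose reads could be recovered in 1 way. Counts reach 7 reads in a knockout library for GJA10, and most EGFR+vIII libraries are at 0.

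The tested genes beside each member were compared with it next. GJA1 stands in a stretch with few tested genes. All 4 within 2 Mb had negative log2 fold changes in the authors' deposited table, between -1.69 and -0.23. Their median was -0.47, and 2 of them were called lower, beside 11.9% over all accessions. With fewer than 5 such genes, no value of GJA1 relative to them was computed. The nearest were TBC1D32 (-0.41, SE 0.38, adjusted p = 0.516), 101 kb away, and SERINC1 (-0.23, SE 0.07, adjusted p = 0.00321), 994 kb away, both as log2 fold changes from the authors' deposited table. Within 10 Mb of GJA1, 3 of 41 tested genes were called higher and 11 called lower by the authors' deposited table, beside 11.6% and 11.9% over all accessions, and their median log2 fold change was -0.02. Relative to that median over 10 Mb, a window added after seeing the data, the value of GJA1 was -1.35. The part of its position on chromosome 6 in the GJA1 result was not tested.

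GJB2 had 13 tested genes within 2 Mb, with a median log2 fold change of -0.03 in the authors' deposited table. Of these 13, 1 was called higher and 1 lower, beside 11.6% and 11.9% over all accessions. TUBA3C, called higher, stood at 2.03 (SE 0.38) in log2 units, by the authors' deposited table, a rise like that of GJB2. IL17D, called lower, stood at -0.71 (SE 0.24) on that scale. The nearest tested genes, ZMYM5 (-0.43, SE 0.24) and CRYL1 (-0.03, SE 0.37), were not called in the authors' deposited table. Relative to its neighbours GJB2 had a log2 fold change of 2.07. PANX1 had 21 tested genes within 2 Mb, with a median of -0.04 in the authors' deposited table. Of these 21, 1 was called higher and 1 lower, beside 11.6% and 11.9% over all accessions. The gene called higher was the nearest on its lower side, MED17, a Mediator subunit, at 0.32 (SE 0.13, adjusted p = 0.0496), and MRE11, a DNA repair nuclease, lay nearest on the other side at 0.15 (SE 0.34), in log2 units, by the authors' deposited table. Relative to its neighbours PANX1 had a log2 fold change of 0.29. The nearest tested genes to GJC1, DBF4B (0.34, SE 0.22) and FAM187A (-0.01, SE 0.29), and to GJD3, RARA-AS1 (0.20, SE 0.31) and TOP2A (0.18, SE 0.07), were not called in the authors' deposited table. Beside PANX2, PIM3 (0.87, SE 0.13) was higher and SELENOO (0.29, SE 0.21) was not called, as log2 fold changes from the authors' deposited table.

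**Figure D4:**
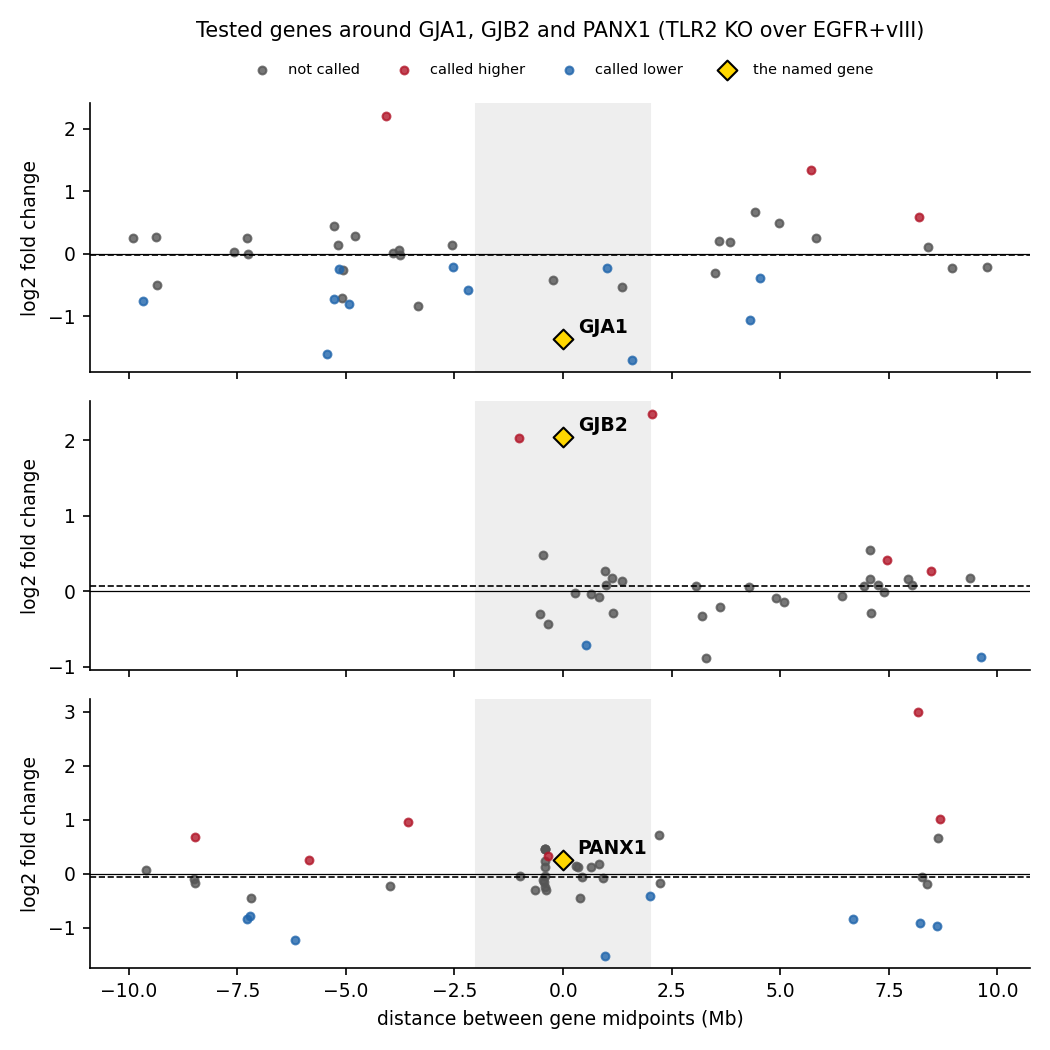
Log2 fold change, knockout over EGFR+vIII, of tested genes by distance between gene midpoints in Mb, up to 10 Mb on each side of GJA1, GJB2 and PANX1 (diamonds). Grey bands mark 2 Mb, dashed lines the median of the genes shown (-0.02, 0.06 and -0.06), and the 4 genes in the band around GJA1 all lie below 0.

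The last question was what happened to genes known to act with these channels, taken from lists drawn up with earlier results of these data known. Over 9 such lists, 66 genes were tested, 9 were called higher and 15 lower, beside 11.6% and 11.9% over all accessions, and their median log2 fold change was -0.02 in the authors' deposited table. These genes had more reads than most, with a median base mean of 169.6 against 49.3 over all tested accessions, and among accessions with a base mean of at least 100 the shares called were 22.7% and 24.9%. Connexin scaffolds and trafficking proteins had 3 of 14 tested members higher and 2 lower, beside 11.6% and 11.9% over all accessions, with a median of 0.15 in the authors' deposited table. NEDD4L, a ubiquitin ligase related to the NEDD4 ligase that removes GJA1 protein from the membrane, rose by 2.15 (SE 0.33) in its accession with the most reads (base mean 40.1), 1 of 10, in log2 units, by the authors' deposited table. Its 3 other accessions with a p-value had log2 fold changes between 0.04 and 0.16 and were not called in the authors' deposited table. SMURF2, another ubiquitin ligase of connexins, rose by 0.54 (SE 0.08) in log2 units, by the authors' deposited table. CAV1, a coat protein of caveolae that binds connexins, rose by 0.66 (SE 0.22) in the accession with the most reads, and its 2 other accessions with a p-value, at 0.55 and 0.36, were not called, in log2 units, by the authors' deposited table. CDH2, the neural cadherin of adherens junctions, fell by 0.83 (SE 0.20) in log2 units, by the authors' deposited table. Its other accession, NM_001308176, was at 0.0050 on that scale, and the call was lost with scaled Wald scores (adjusted p = 0.145). TJP1, the scaffold beneath gap and tight junctions, and NEDD4 itself are listed at 0 in the authors' deposited table.

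Kinases and phosphatases of GJA1 protein had 1 of 14 tested members higher and 3 lower, beside 11.6% and 11.9% over all accessions, with a median log2 fold change of -0.18 in the authors' deposited table. FYN, a kinase of the Src family, fell by 0.75 (SE 0.12) and PRKCA, a protein kinase C, fell by 0.57 (SE 0.08) in log2 units, by the authors' deposited table. PTPN12, a tyrosine phosphatase, rose by 1.02 (SE 0.25) in log2 units, by the authors' deposited table. The other accession of FYN with a p-value, at -0.40, was not called, as a log2 fold change from the authors' deposited table. Kinases of the Src and protein kinase C groups are known to phosphorylate the tail of the GJA1 protein, and RNA levels do not measure their activity.

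Among transcription factors known to act on GJA1, 2 of 12 tested members were higher and 4 lower, beside 11.6% and 11.9% over all accessions, with a median log2 fold change of -0.09 in the authors' deposited table. TBX2, a T-box repressor of GJA1, fell by 0.90 (SE 0.09, adjusted p = 1.08e-20 by the authors' DESeq2 run), and SNAI2, a repressor of epithelial genes, fell by 0.50 (SE 0.08), in log2 units, by the authors' deposited table. Of the AP-1 factors, whose letters stand in the GJA1 window printed above, FOS rose by 0.74 (SE 0.19) and FOSL2 fell by 0.43 (SE 0.10) in log2 units, by the authors' deposited table. JUN (-0.25, SE 0.07) and JUNB (0.23, SE 0.08), as log2 fold changes from the authors' deposited table, were called in opposite directions. They were named after their values were seen. Both calls were lost against a null of 1.5-fold and with scaled Wald scores. That of JUNB was also lost with no filter on low values and at a threshold of 0.01.

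Purinergic receptors, which sense the ATP, ADP and adenosine that pannexin and connexin channels let out, were mostly not tested: 13 of 21 are listed at 0 and 2 were tested in the authors' deposited table. P2RY1, the ADP receptor, fell by 1.17 (SE 0.13, adjusted p = 5.38e-18 by the authors' DESeq2 run), and ADORA2B, an adenosine receptor, rose by 0.31 (SE 0.09), in log2 units, by the authors' deposited table. Extracellular nucleotide enzymes had 1 of 7 tested members higher and 2 lower, beside 11.6% and 11.9% over all accessions, with a median log2 fold change of 0.05 in the authors' deposited table. NT5E, which makes adenosine from AMP at the cell surface, rose by 0.60 (SE 0.14), and ENPP1, which cleaves ATP, fell by 0.56 (SE 0.08) in log2 units, by the authors' deposited table. DPP4, a peptidase that anchors adenosine deaminase, fell by 0.59 (SE 0.09) in log2 units, by the authors' deposited table.

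The caspases that cut pannexin channels and the inflammasome genes had 0 of 6 tested members called in either direction by the authors' adjusted p, and 0 at an unadjusted p under 0.05, in the authors' deposited table. IL1B, whose product the inflammasome matures, had a base mean of 4596 and stood at 0.07 as log2 fold change by the authors' deposited table (SE 0.08, adjusted p = 0.643). NLRP3, PYCARD and GSDMD are listed at 0 in the authors' deposited table. Other large-pore channels had 3 of 11 members tested: CALHM5 fell by 0.80 (SE 0.12), LRRC8C, a volume-regulated anion channel subunit, had a log2 fold change of -0.03 (SE 0.09) and CALHM3 one of 0.64 (SE 0.36) in the authors' deposited table. CALHM5 and FYN lie within 10 Mb of GJA1 on chromosome 6, in the window described above.

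**Figure D5:**
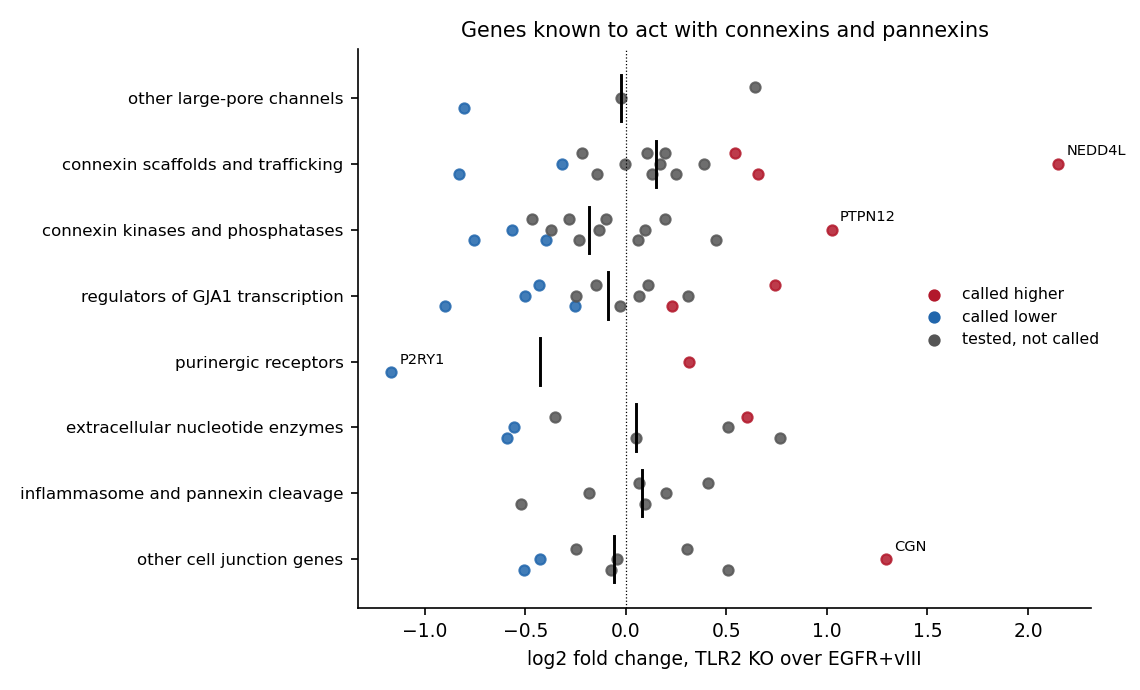
Log2 fold change, knockout over EGFR+vIII, of the tested members of 8 lists of related genes (1 point a gene; red, called higher; blue, called lower; grey, not called), with the median of each list as a bar. NEDD4L at 2.15 and CGN at 1.29 stand farthest to the right and P2RY1 at -1.17 farthest to the left.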

How the data were processed

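Total RNA of 6 libraries was sequenced, 3 labelled EGFR+vIII TLR2 KO and 3 labelled EGFR+vIII, grouped by the cell type in the labels. Per the submitters' processing notes, reads were handled with STAR and DESeq2 on hg38. The sources used here give no versions, counter, strand setting or annotation. Per the file headers, the authors deposited a base mean (a signal: counts divided by size factors, averaged over libraries), a log2 fold change and its SE on the log2 scale, a Wald score, a p-value and an adjusted p-value per RefSeq accession. The table held 67933 accessions, 73.3% listed at 0, and 10303 with an adjusted p, the lowest at a base mean of 3.11. The deposited SE reaches at most 0.38, a mark of fold changes drawn towards 0, which understates changes of accessions with few reads.

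Accessions were matched to genes (98.8%) by a RefSeq table of GRCh38.p14, the build of hg38. A count test on libraries needs values per library and could not be run, so the deposited adjusted p under 0.05 was the call, as the design allowed. Means per group were computed from base mean and fold change. They lie closer together than the reads themselves where the fold change is drawn towards 0. The 6 smallest base means that at least 50 accessions share were taken as the worth of 1 read in each library (size factors 0.928 to 1.07), and the sign of the fold change places each on its side. Of 9974 accessions with a base mean under 8, 99.9% gave 1 set of whole reads, and in 99.3% of these the deposited fold had the sign of the raw fold and was no larger. Calls and read recovery were tested on simulated data. Alternatives were a null of 1.5-fold, scaled Wald scores, a base mean of at least 100, no filter, a threshold of 0.01, 1 accession per gene, other accessions, and fold changes relative to genes within 2 Mb. A window of 10 Mb was added after seeing the data. Scaled Wald scores had their median (0.0768) subtracted and were then divided by their central spread (1.75). Python 3.11.15, pandas 2.3.3 and scipy 1.17.1 were used.

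The members and lists were chosen with earlier results of these data known. Named genes are the members, the other family genes, up to 4 called genes with the largest change per list, and the nearest tested genes on each side of a member. Marker genes, IL1B, LRRC8C, CALHM3, JUN, JUNB, SLC1A3, GLUL, TUBA3C, IL17D and list genes named at 0 were chosen after their values were seen. With 1 comparison there is no pattern over conditions, so no gene is named for likeness. Intervals and recovered reads cover the authors' fit and counting only. PANX1, GJA3, GJB2 and GJA1 had promoter windows in the RefSeq table; no protein sequence was used here. Some genes that the rule names are not reported here.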

Additional observations from a re-analysis of the deposited data

How the results depend on the processing

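GJA1 and GJB2 kept their direction and call under each alternative that could be computed for them: GJA1 had 4 tested genes within 2 Mb, under the minimum of 5, and GJB2 lies below a base mean of 100. The members called lower were therefore 0 relative to genes within 2 Mb and 1 in the other settings. The members called higher, 2 in the main setting, were 1 with a 1.5-fold null, scaled scores, a base mean of at least 100, no filter or a threshold of 0.01. PANX1 was the call lost, except with a base mean of at least 100, where GJB2 was left out and the adjusted p of PANX1 was 0.0224. Over the whole table, 1191 accessions were called higher and 1226 lower, against 198 and 210 with a 1.5-fold null and 384 and 509 with scaled scores. Over the lists of related genes, 9 were higher and 15 lower. With a 1.5-fold null 1 was higher and 2 lower, where 3.96% of all accessions were called. With scaled scores 2 were higher and 10 lower, where 8.67% of all accessions were called. Of 20 named related genes, the 1.5-fold null ended the call of 17 (all but NEDD4L, P2RY1 and TBX2) and scaled scores that of 9: ADORA2B, CAV1, CDH2, CGN, FOS, FOSL2, NT5E, PERP and PTPN12. Relative to genes within 2 Mb, DSG2 turned to 0.0101 (3 of 20 had too few neighbours), and the other accession of CDH2 had 0.0050 on the log2 scale. The cause of these moves was not tested. No paired analysis was possible because the table holds no value per library; leave-one-out fits and another normalization could not be run for the same reason. The members GJB2, GJC1 and GJD3, with fewer reads, had an SE of 0.32 to 0.38, against 0.08 and 0.10 for GJA1 and PANX1. The part of depth in this difference was not tested.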

Other observations

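Other cell junction genes, of tight junctions and desmosomes, had 1 of 8 tested members higher and 2 lower, with a median log2 fold change of -0.06 in the authors' deposited table, beside 11.6% and 11.9% over all accessions. CGN, the tight junction adaptor cingulin, rose by 1.29 (SE 0.28) in log2 units, by the authors' deposited table, at a base mean of 58.8, like that of GJB2. DSG2, a desmosomal cadherin, fell by 0.50 (SE 0.08) in log2 units, by the authors' deposited table, but stood at 0.0101 (adjusted p = 0.952) relative to genes within 2 Mb. PERP, a desmosome protein of epithelia, fell by 0.43 (SE 0.09) in log2 units, by the authors' deposited table. Genes of the coupled astrocyte (AQP4, KCNJ10, SLC1A2, MLC1, HEPACAM and ALDH1L1) are listed at 0 in the authors' deposited table, and SLC1A3 and GLUL had base means of 1.67 and 0.845, so that 0 of 8 could be tested.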
